A study of Mus musculus with 6 samples.

Results

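The Rab GTPases examined here were the 59 protein-coding genes, of 54532 genes in the table and 22046 protein-coding genes, whose symbol is Rab followed by a number and at most 1 letter. Rab3ip, an exchange factor for Rab proteins, and Rab5if, named as a factor that interacts with Rab5, carry longer endings and were not counted among them. Transcripts were measured by RNA sequencing in wild type (WT) and progranulin knockout (PGRN KO) mouse macrophages. Progranulin, the product of Grn, is a glycoprotein that is secreted and also reaches lysosomes. There were 3 WT libraries, replicates 1, 2 and 3, and 3 PGRN KO libraries, replicates 4, 5 and 6, all labelled as strain C57BL/6J. All 6 cultures, plated at 2000000 cells per well, had been exposed for 6 hours to Candida albicans. By the labels 1 fungal cell was added for each macrophage, whereas the study's own text gives another ratio, so the dose is not settled. No unchallenged library was analysed here, so every difference below is one between genotypes in the presence of the fungus. The PGRN KO animals lacked Grn in all cells and came from a commercial colony, whereas the WT mice came from the university of the authors. The labels give the cells as macrophages recruited to the peritoneal cavity, the study's own text calls them bone marrow-derived, and the source of the cells is therefore not settled. Nothing in the labels says that the libraries came from separate animals, so p-values measure only the spread between these libraries, which may be technical.

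Rab proteins are small GTPases that cycle between a GDP-bound form held in the cytosol by GDP dissociation inhibitor and a GTP-bound form on a membrane, where they recruit effectors such as tethers, motors and kinases. Exchange factors load GTP, and GTPase-activating proteins, most of them with a TBC domain, return the protein to the GDP form. In macrophages, Rab5 proteins mark the young phagosome, and Rab7 replaces them as the phagosome matures and fuses with lysosomes, the route by which an ingested yeast cell meets acid and hydrolases.

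Values are FPKM, fragments corrected for gene length and for library size, so that levels can be set side by side between genes. Of the 59 Rab genes, 33 had a mean of at least 1 FPKM over the 6 libraries and were tested, and the other 26 were not. Grn itself was at 323, 337 and 325 FPKM in WT and at 0.0166, 0 and 0.0167 FPKM in PGRN KO, which was 1, 0 and 1 fragments, as the labels require. The libraries held 15996786 to 17551619 counted fragments, and a tested Rab gene had between 22.7 (Rab33a) and 16156 (Rab7) fragments per library on average, with a median of 1233. All 7 macrophage markers were above the filter, with a summed level of 7091 to 7423 FPKM in WT and 7235 to 9725 in PGRN KO. Most of this sum was Lyz2, at 5657 to 5851 FPKM in WT and 5873 to 8135 in PGRN KO, highest in replicate 6. Of the 7 markers, Csf1r was lower and Mertk higher in PGRN KO. Among markers of large peritoneal macrophages, Gata6 was at 3.78 to 4.26 FPKM in WT and 3.84 to 5.07 in PGRN KO, and Timd4 stayed under 0.21 FPKM in every library, while Icam2 was higher, at 3.10 and 5.10 FPKM on average (log2 fold change 0.57, limma adjusted p = 0.00914). Markers of other cells also differed. The summed level of 5 B cell markers was 4.70 to 6.06 FPKM in WT and 18.7 to 24.0 in PGRN KO, with 3 of 3 tested higher. That of 6 neutrophil markers, nearly all of it S100a8, was 48.8 to 53.1 and 21.4 to 26.3 FPKM, with Ly6g and Elane listed at 0. S100a9 (0.0432 and 0.182 FPKM on average) and Camp (0.176 and 0.199) were not lower in PGRN KO. Markers of T and NK cells summed to 1.21 to 1.73 FPKM in WT and 2.38 to 3.67 in PGRN KO, those of mesothelium and fibroblasts to 0.989 to 1.10 and 1.84 to 3.31 (higher on average for fibroblast genes such as Dcn, 0.490 and 1.35, and not for the mesothelial Krt19, Msln and Upk3b), and those of erythroid cells to at most 0.206 FPKM in any library. In bulk samples, fewer cells of a type and less RNA per cell cannot be told apart.

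The Rab transcripts spanned a wide range of levels in both genotypes. Rab7 stood far above the rest, with a mean of 363 FPKM over the 6 libraries. Rab5c, an early endosome Rab, was next at 121 FPKM, followed by Rab8b at 93.1, Rab20 at 85.4 and Rab1a at 84.1 FPKM. In WT the ranges of Rab5c (104 to 113 FPKM), Rab8b (97.4 to 113), Rab20 (91.0 to 101) and Rab1a (93.2 to 97.2) each overlapped with that of the next in this order. In PGRN KO, Rab5c (116 to 160 FPKM) lay above the other three, whose highest value was 91.0 FPKM. In all, 2 Rab genes had a mean of at least 100 FPKM, 16 lay between 20 and 100, 6 between 5 and 20, and 9 between 1 and 5 FPKM.

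**Figure D1:**
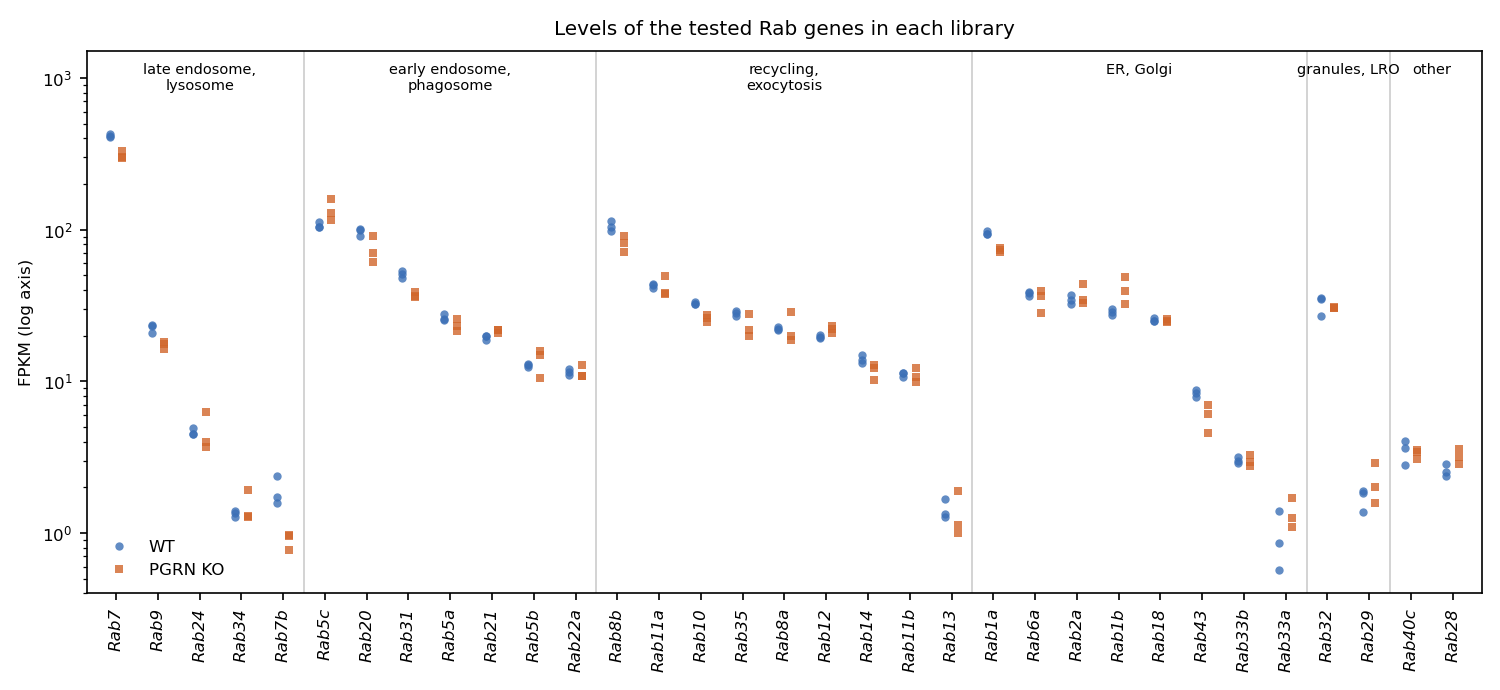
FPKM (log axis) of the 33 tested Rab genes in each library, grouped by the membrane on which the protein acts (LRO, lysosome-related organelles), with WT as circles and PGRN KO as squares. Rab7 is the most abundant in every library, and its PGRN KO values of 296 to 332 FPKM lie below the WT values of 410 to 424.

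To ask which Rab transcripts differed with the loss of progranulin, the genotypes were compared gene by gene with limma on log2(FPKM + 1), a scale on which the change of a low gene is understated. Rab7, Rab9 and Rab7b of late endosomes, Rab31 of early endosomes and the Golgi, Rab10 of exocytosis and Rab1a of transport from the endoplasmic reticulum (ER) to the Golgi were lower in PGRN KO. These 6 of 33 tested genes (18.2%) passed a Benjamini-Hochberg adjusted p of 0.05 over all genes tested, where 24.2% of 8882 tested genes passed it, 10.4% higher and 13.8% lower. None of the 33 was higher at that threshold, by limma on FPKM or by limma voom on recovered fragments, and at an unadjusted p under 0.05 there were 11, of which 2 were higher and 9 lower. The 3 values of each genotype did not overlap for 14 of the 33 (42.4%), 4 with all PGRN KO values above and 10 with all below, against 48.8% of all tested genes, 21.2% above and 27.6% below. The share of Rab genes that passed was thus near or under the background. The median log2 fold change of the 33 was -0.04, beside -0.03 over all genes tested, and the median of the Rab genes turned positive on a TPM scale (0.01), when libraries were sized by their summed fragments (0.05) and without PGRN KO replicate 4 (0.01). Of all genes past the threshold, 42.8% were higher in PGRN KO, a share that was 60.3% on the TPM scale and 62.9% with the sum of fragments.

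The calls depended on single libraries. Without WT replicate 1 or without WT replicate 3, limma called 0 Rab genes (7 and 9 at an unadjusted p under 0.05), where 8.03% and 9.94% of all tested genes passed. Without PGRN KO replicate 6 it called 15 (45.5%), of which 2 were higher and 13 lower, where 41.3% of all tested genes passed, so the count of Rab genes moved with that of the whole table. Leaving out WT replicate 2 gave 2 calls, PGRN KO replicate 4 gave 4 and PGRN KO replicate 5 gave 2, beside between 9.63% (WT replicate 2) and 18.03% (PGRN KO replicate 5) of all tested genes. Of the 6 genes, Rab31 and Rab7b passed without each of these 3 libraries and Rab7, Rab9, Rab10 and Rab1a did not, and all 6 passed without PGRN KO replicate 6. Over all alternatives that tested them, Rab7 passed in 14 of 19, Rab31 in 15 of 19, Rab7b in 14 of 18, Rab1a in 12 of 19, Rab9 in 11 of 19 and Rab10 in 10 of 19. The 6 genes kept a negative log2 fold change under each of the alternatives run.

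**Figure D2:**
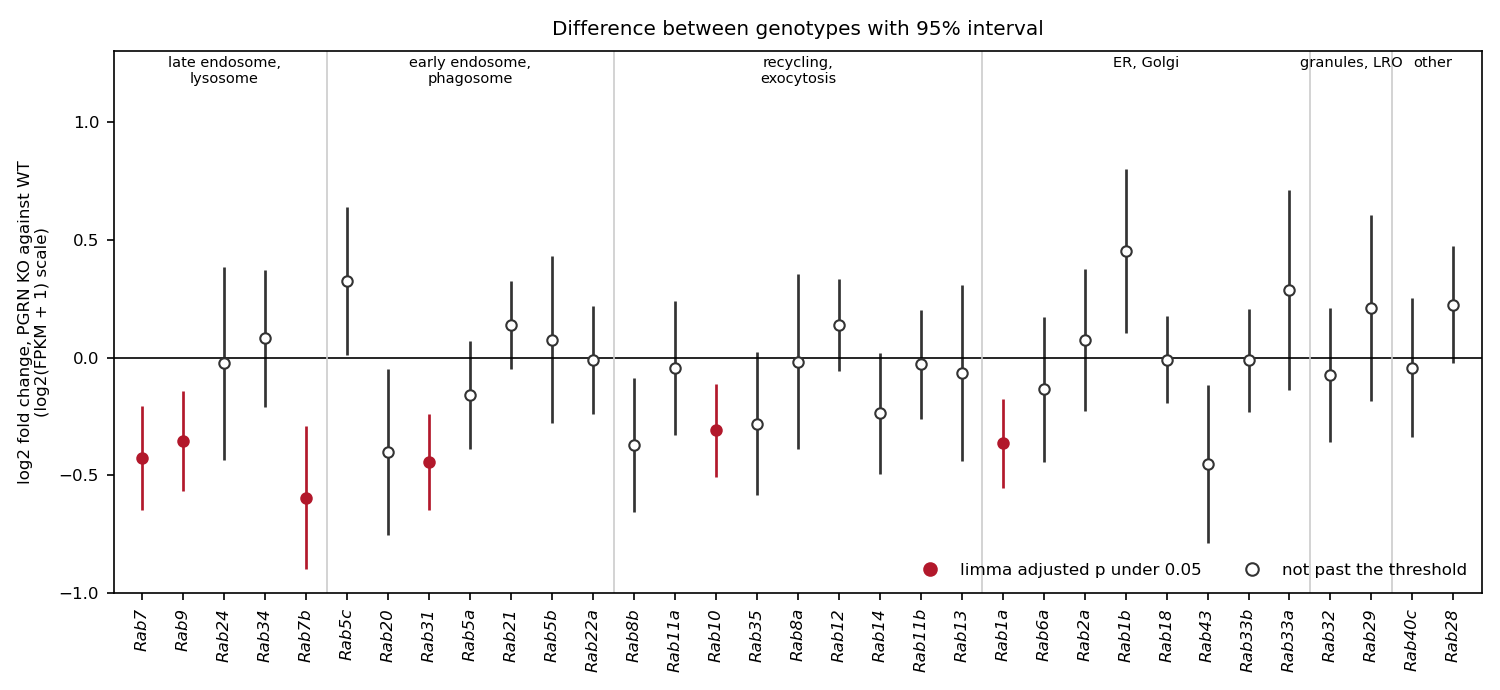
Log2 fold change of PGRN KO against WT on the log2(FPKM + 1) scale for the 33 tested Rab genes, with the 95% interval from limma as bars. The 6 filled points are the genes with an adjusted p under 0.05, all below 0, and the open points are the other 27.

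The late endosome and lysosome group held 8 Rab genes, of which 5 were tested. Of these, 3 (60%) passed as lower and 0 as higher, with a median log2 fold change of -0.35. Over all genes tested, 24.2% passed, 10.4% higher and 13.8% lower, with a median of -0.03. The same background applies to each role group below. The groups are small and were drawn up with earlier results of these data known. Rab7 (ENSMUSG00000079477, GRCm38 chromosome 6, 87999106 to 88045270, minus strand) drives the fusion of late endosomes and phagosomes with lysosomes. It was at 413, 424 and 410 FPKM in WT and at 302, 296 and 332 FPKM in PGRN KO. Every PGRN KO value lay well below every WT value. The means were 416 ± 7.03 and 310 ± 19.2 FPKM (SD, n = 3 each), a change of -25.5%, with a log2 fold change of -0.42 ± 0.09 (SE, limma adjusted p = 0.0198). The call was lost only when any WT library or PGRN KO replicate 4 or 5 was left out (adjusted p from 0.000293 to 0.106 over 19 alternatives). Rab7 has a processed pseudogene, Rab7-ps1, with which it shared 14.1% of its 31-base words, and the pseudogene was itself listed at 50.9 FPKM in WT and 34.4 in PGRN KO on average. Reads that fit both copies may have been divided between them, and the 2 levels are uncertain to that extent.

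Rab9 (ENSMUSG00000079316, chromosome X, 166457253 to 166479867, minus strand) carries receptors from late endosomes back to the Golgi. Its level was 23.1, 23.5 and 20.9 FPKM in WT and 16.4, 18.1 and 17.7 FPKM in PGRN KO. The groups were separate, the nearest values being 20.9 and 18.1 FPKM. The log2 fold change was -0.35 ± 0.09 (SE, limma adjusted p = 0.0311).

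Rab7b (ENSMUSG00000052688, chromosome 1, 131688695 to 131715439, plus strand) acts between late endosomes and the Golgi and is a separate gene, not an isoform of Rab7. Its level was 1.72, 1.58 and 2.37 FPKM in WT and 0.961, 0.971 and 0.776 FPKM in PGRN KO. These were 133, 108 and 198 fragments against 77, 85 and 62, so that the groups were separate but rested on few fragments, and WT replicate 3 was the highest. The log2 fold change was -0.59 ± 0.13 (SE, limma adjusted p = 0.0185), and the mean FPKM changed by -52.2%. The summed level of 4 dendritic cell markers was also lower, 1.84 to 2.27 FPKM in WT and 1.10 to 1.44 in PGRN KO, and its part in the Rab7b difference was not tested. Within that sum Xcr1 (1.16 and 0.388 FPKM on average) and Flt3 (0.320 and 0.120) were lower without overlap, whereas Zbtb46 (0.550 and 0.698) and Clec9a were not lower. Rab24, linked to autophagy, and Rab34, linked to lysosome positioning, did not pass, with log2 fold changes of -0.02 (95% interval -0.44 to 0.39) and 0.08 (-0.21 to 0.37). The fragments of Rab24 are uncertain, since 62.4% of its exonic bases lie opposite Prelid1, which was at 108 FPKM in WT. Rab39 and Rab39b stayed under 0.33 FPKM, and Rab9b was listed at 0 in all libraries.

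**Figure D3:**
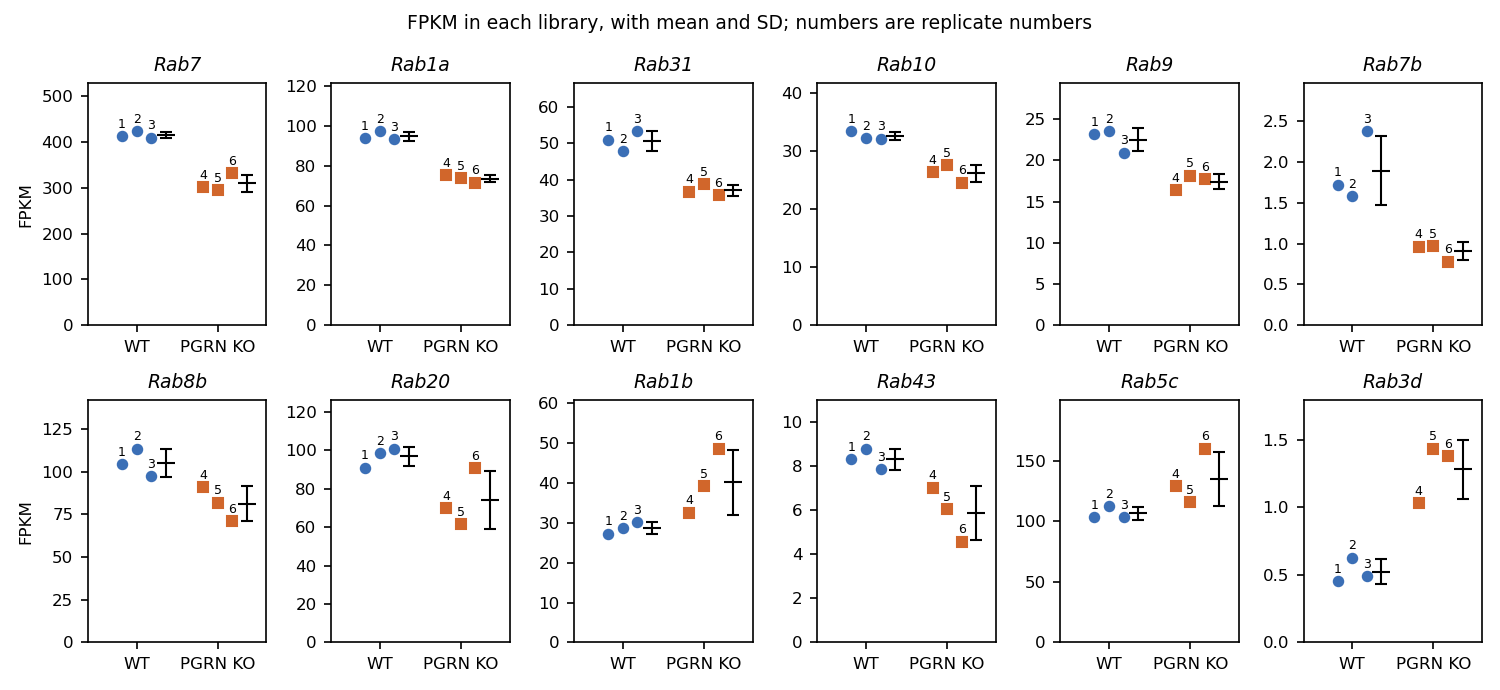
FPKM of 12 Rab genes in each library (WT circles, PGRN KO squares, numbers giving the replicate), with the mean and SD beside the points; each vertical axis starts at 0 and has its own range. The 6 genes of the upper panels passed the adjusted threshold, those of the lower panels did not or, for Rab3d, lay below the filter.

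Of 8 early endosome and early phagosome Rab genes, 7 were tested, 1 passed as lower and 0 as higher, with a median log2 fold change of -0.01. Rab31 (ENSMUSG00000056515, chromosome 17, 65651729 to 65772752, minus strand), a relative of Rab5 on early endosomes and the trans-Golgi network, was at 51.0, 47.8 and 53.2 FPKM in WT. In PGRN KO it was at 36.7, 38.6 and 35.8 FPKM. The groups did not come near each other, and the spread within each was small. The log2 fold change was -0.44 ± 0.09 (SE, limma adjusted p = 0.0133), and the mean changed by -26.9%. The call was lost on the TPM scale, with the sum of fragments and without WT replicate 1 or 3 (adjusted p from 0.000700 to 0.0937 over 19 alternatives).

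The Rab5 paralogues, which drive fusion of early endosomes and mark new phagosomes, did not move together. Rab5c was at 104, 113 and 104 FPKM in WT and at 129, 116 and 160 FPKM in PGRN KO. All PGRN KO values were above the WT values, but PGRN KO replicate 5 only narrowly. The log2 fold change of 0.33 (95% interval 0.01 to 0.64) did not pass (limma adjusted p = 0.117), although it did pass under 6 of 19 alternatives, among them the TPM scale, sample weights and the correction for GC content and length. Rab5c lies on chromosome 11 at 100715009 to 100738215, and the deleted gene Grn on the same chromosome at 102430315 to 102437048. The part of this position in the Rab5c difference was not tested. Rab5a was at 25.5 to 27.7 FPKM in WT and 21.5 to 25.8 in PGRN KO, and Rab5b at 12.4 to 13.0 and 10.5 to 15.7 FPKM, and in both the genotypes overlapped. Among the 3 Rab5 transcripts, Rab5c made up 72.9%, 73.7% and 72.9% in WT and 76.0%, 74.8% and 83.4% in PGRN KO. Rab5a made up 18.1% in WT and 13.8% in PGRN KO on average, also without overlap, and for both shares the exact two-sided permutation test gave p = 0.1, below which it cannot go with 3 libraries a genotype. The mean share of Rab5c was 4.91 percentage points higher in PGRN KO, and 2.27 points higher without PGRN KO replicate 6, and its gene model has 2194 bases against 5270 for Rab5a.

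Rab20, which acts on maturing phagosomes, was at 91.0, 98.6 and 101 FPKM in WT and at 69.8, 61.5 and 90.7 FPKM in PGRN KO. The highest PGRN KO value, in replicate 6, almost touched the lowest WT value. The log2 fold change of -0.40 ± 0.15 (SE) did not pass (limma adjusted p = 0.0935), and 25.6% of the exonic bases of Rab20 lie opposite another transcript, E230013L22Rik. Rab21, an early endosome Rab that binds integrins, was at 18.6 to 19.8 FPKM in WT and 20.8 to 21.8 in PGRN KO, without overlap, with a log2 fold change of 0.14 (95% interval -0.05 to 0.33). Rab22a had nearly the same mean in both genotypes, 11.5 FPKM, with an interval of -0.24 to 0.22 on the log2 scale. Rab17, an epithelial Rab, was listed at 0 in every library.

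The recycling and exocytosis group held 13 Rab genes, of which 9 were tested, 1 passed as lower and 0 as higher, with a median log2 fold change of -0.07. Rab10 (ENSMUSG00000020671, chromosome 12, 3247428 to 3309969, minus strand), known for delivering transporters and receptors to the cell surface, was at 33.3, 32.2 and 32.1 FPKM in WT and at 26.3, 27.5 and 24.5 FPKM in PGRN KO. The genotypes were separate, with a log2 fold change of -0.31 ± 0.08 (SE, limma adjusted p = 0.0380). An antisense gene, Rab10os, covers 4.07% of its exonic bases and was at 2.63 FPKM in WT and 1.78 in PGRN KO. Rab8b, which acts in transport to the plasma membrane and was the most abundant of this group, was at 104, 113 and 97.4 FPKM in WT and at 91.0, 81.9 and 70.8 FPKM in PGRN KO. Its groups did not overlap, but its log2 fold change of -0.37 ± 0.12 (SE) did not pass (limma adjusted p = 0.0629). Its paralogue Rab8a was at 21.9 to 22.7 FPKM in WT and at 18.7, 19.8 and 28.5 FPKM in PGRN KO. Replicate 6 lay above all WT values and the other 2 PGRN KO libraries below them.

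Rab11a and Rab11b, the Rab proteins of the recycling endosome, had intervals of -0.33 to 0.24 and -0.26 to 0.20 on the log2 scale. Their ratio to each other was steady, Rab11a making up 79.1% to 79.5% of the pair in WT and 78.3% to 80.2% in PGRN KO. Rab35, a Rab of fast recycling, was at 26.9 to 29.0 FPKM in WT and 19.9, 21.8 and 27.6 FPKM in PGRN KO, and overlapped through replicate 6 alone. Rab14 was at 13.2 to 14.8 FPKM in WT and 10.2 to 12.8 in PGRN KO and Rab12 at 19.4 to 20.3 and 20.7 to 23.0 FPKM, in opposite directions, without overlap and without passing the threshold. Rab13, a Rab of tight junctions, was under 2 FPKM. Rab15 lay below the filter, at 0.427, 0.410 and 0.228 FPKM in WT and 0.125, 0.183 and 0.0752 FPKM in PGRN KO. It was separate between genotypes on 33, 28 and 19 against 10, 16 and 6 fragments, and was singled out after its values were seen. Rab4a and Rab4b stayed under 0.35 FPKM, and Rab25 had 1 fragment in all.

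Of 13 Rab genes of the ER and Golgi, 8 were tested, 1 passed as lower and 0 as higher, with a median log2 fold change of -0.01. Rab1a (ENSMUSG00000020149, chromosome 11, 20201432 to 20226856, plus strand) controls traffic from the ER to the Golgi and the start of autophagosomes. It was at 93.8, 97.2 and 93.2 FPKM in WT and at 75.1, 73.8 and 71.4 FPKM in PGRN KO. The groups were tight and wide apart, with means of 94.7 ± 2.16 and 73.4 ± 1.85 FPKM (SD, n = 3 each). The log2 fold change was -0.36 ± 0.08 (SE, limma adjusted p = 0.0198).

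Rab1b, which acts at the same step, went the other way. It was at 27.3, 28.7 and 30.1 FPKM in WT and at 32.5, 39.2 and 48.6 FPKM in PGRN KO. All PGRN KO values were above the WT values, and they were spread over a wider range. Its log2 fold change of 0.45 ± 0.15 (SE) did not pass (limma adjusted p = 0.0652), but passed under 8 of 19 alternatives, and the sign was positive in all 19. Rab1b made up 22.5%, 22.8% and 24.4% of the Rab1a and Rab1b total in WT and 30.2%, 34.7% and 40.5% in PGRN KO. The mean share (± SD, n = 3 each) was 23.2% ± 1.04 in WT and 35.1% ± 5.14 in PGRN KO, 11.9 percentage points higher, and 9.22 points higher without PGRN KO replicate 6. A share within a pair does not depend on how libraries are scaled, and the exact two-sided permutation test gave p = 0.1, the smallest it can give here. The gene model of Rab1a has 3799 bases and that of Rab1b 1835, and PGRN KO replicate 6 differed from the other PGRN KO libraries by length, as given further on.

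**Figure D4:**
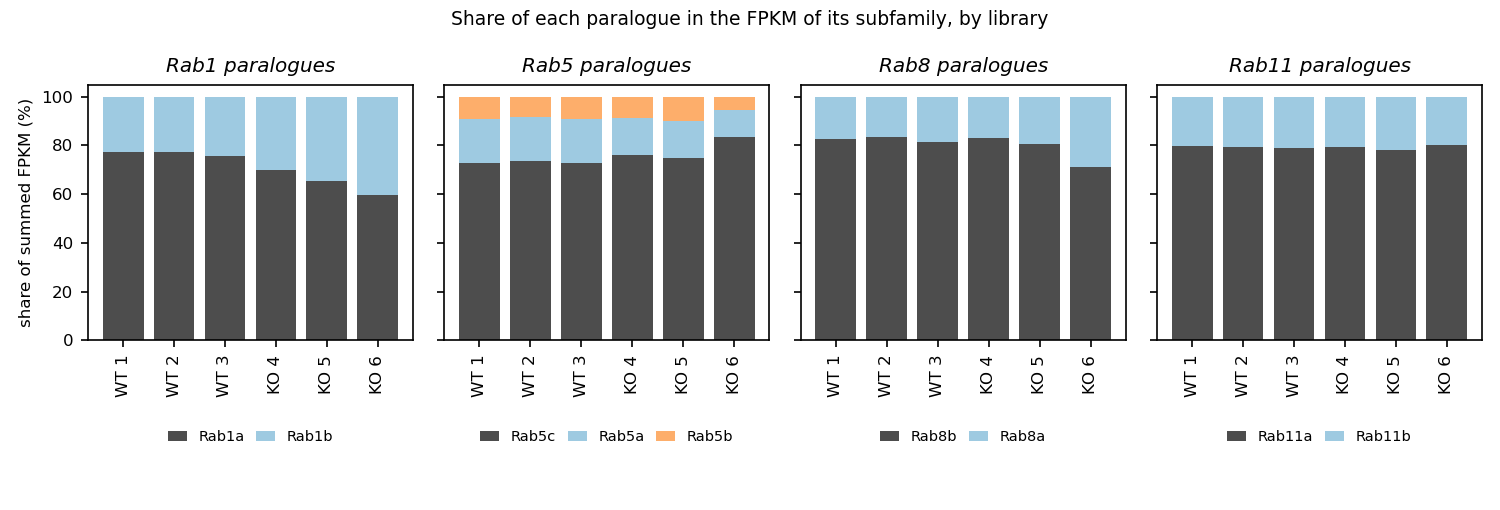
Share of each paralogue in the summed FPKM of its subfamily in each library, for the Rab1, Rab5, Rab8 and Rab11 subfamilies. The Rab1b share is 22.5% to 24.4% in WT and 30.2% to 40.5% in PGRN KO, whereas the Rab11a share stays between 78.3% and 80.2% in all libraries.

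Rab43, a Rab of ER to Golgi transport, was at 8.31, 8.80 and 7.85 FPKM in WT and at 7.02, 6.06 and 4.58 FPKM in PGRN KO. The groups were separate, and the log2 fold change of -0.45 ± 0.14 (SE) narrowly missed the threshold (limma adjusted p = 0.0588). Its level is uncertain because 75.4% of its exonic bases also belong to a predicted gene on the same strand, Gm45140, and fragments in them may not have been counted for either. Rab18, a Rab of the ER and of lipid droplets, was the most even of these, at 24.9, 26.2 and 24.9 FPKM in WT and 24.6, 25.8 and 25.0 in PGRN KO, with an interval of -0.19 to 0.17 on the log2 scale. Rab2a and Rab6a of the Golgi had wider intervals, -0.23 to 0.38 and -0.44 to 0.17. Rab33b, at 2.76 to 3.28 FPKM, and Rab33a, at 0.568 to 1.70 FPKM, overlapped between genotypes. Below the filter, Rab19 reached 1.01 FPKM in PGRN KO replicate 5, Rab2b stayed under 0.42 FPKM and Rab6b under 0.30, and Rab30 and Rab36 had 12 and 4 fragments in all.

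The 12 Rab genes of secretory granules and lysosome-related organelles were mostly silent or nearly so. Only Rab32 and Rab29 were tested, and neither passed. Rab32, which acts on lysosome-related organelles, was at 34.8, 35.6 and 26.8 FPKM in WT and 30.7, 30.6 and 30.2 in PGRN KO. WT replicate 3 was lower than every PGRN KO library and the other 2 WT libraries were higher, with a log2 fold change of -0.07 (95% interval -0.36 to 0.21). Rab29, its close relative, was at 1.38 to 1.89 FPKM in WT and 1.58 to 2.88 in PGRN KO.

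Rab3d, a Rab of regulated secretion, lay just below the filter with a mean of 0.903 FPKM and is described because of its values. It was at 0.456, 0.628 and 0.489 FPKM in WT and at 1.03, 1.44 and 1.38 FPKM in PGRN KO. These were 32, 39 and 37 fragments against 75, 114 and 100, so that the groups were wide apart, with a mean 2.45 times as high in PGRN KO. Without the filter, 4 of 56 tested Rab genes passed (7.14%), near the 5.96% of all 22912 genes in that fit. Rab3d was the 1 that passed as higher, beside 3 that passed as lower. The summed level of 5 mast cell markers was higher as well, 2.23 to 3.19 FPKM in WT and 9.31 to 13.9 in PGRN KO, with both tested markers (Tpsb2 and Cma1) higher, though Kit was not, at 0.218 to 0.423 and 0.130 to 0.343 FPKM. B cell markers were higher too, as given above, and the part of either in the Rab3d difference was not tested. Rab27a, which docks granules at the plasma membrane, was at 0.488 to 0.601 FPKM in WT and 0.433 to 0.558 in PGRN KO. Rab3a, Rab26, Rab27b, Rab37, Rab38 and Rab44 had between 5 and 32 fragments in all, Rab3b had 3, and Rab3c was listed at 0.

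The remaining 5 genes act at the cilium or have no assigned place. Rab40c, at 2.82 to 4.05 FPKM in WT and 3.06 to 3.53 in PGRN KO, and Rab28, at 2.37 to 2.84 and 2.83 to 3.58 FPKM, were tested and did not pass. The interval of Rab28 on the log2 scale was -0.03 to 0.47. Rab23, a Rab of the primary cilium, stayed under 0.17 FPKM, and Rab40b and Rab42 had 2 and 1 fragments. Over all groups, 11 of the 26 untested genes had a mean of at least 0.1 FPKM, 12 were between 0 and 0.1, and 3 (Rab3c, Rab9b and Rab17) were listed at 0 throughout. A genotype difference in these 3 was not detectable at this depth, and the other untested genes entered only the fit without a filter.

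Summed over all 59 genes, Rab transcripts came to 1310, 1359 and 1302 FPKM in WT and to 1128, 1107 and 1228 FPKM in PGRN KO. The sums did not overlap, at 1324 ± 30.9 and 1155 ± 64.6 FPKM (SD, n = 3 each; exact two-sided permutation p = 0.1, the smallest possible). As a share of all FPKM, which does not depend on the scaling of libraries, they were 0.343%, 0.332% and 0.364% in WT and 0.320%, 0.328% and 0.293% in PGRN KO, also without overlap but with a small gap. Rab7 carried most of this. It made up 31.6%, 31.2% and 31.5% of the Rab sum in WT and 26.8%, 26.7% and 27.0% in PGRN KO, without overlap. Without Rab7 the sums were 908 ± 23.9 and 845 ± 45.4 FPKM and overlapped (exact permutation p = 0.3). Rab5c had a share in the Rab sum of 8.05% ± 0.200 in WT and 11.6% ± 1.29 in PGRN KO.

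PGRN KO replicate 6 stood apart from replicates 4 and 5 in a way that went with the length of the gene model. Over the 33 tested Rab genes, the difference between replicate 6 and the mean of the other 2 PGRN KO libraries on the log2(FPKM + 1) scale had a Spearman correlation with length of -0.58, a description across genes of the same libraries, and over all tested genes it was -0.55. The median difference was 0.37 in the 16 shorter Rab genes and -0.13 in the 16 longer ones. Replicate 6 lay above both other PGRN KO libraries for 16 Rab genes and below both for 12. Its difference was highest for Rab24 (0.61), Rab8a, Rab13, Rab29, Rab20, Rab1b, Rab35 and Rab5c (0.38), in that order. It was lowest for Rab5b (-0.51), Rab43, Rab6a and Rab8b (-0.28). The 6 genes that passed lay between -0.15 and 0.15. The test favours genes with a small spread within a genotype, so this range was partly set by the selection. It says nothing on whether replicate 6 affected the calls. A quality weight estimated by limma from all genes gave this library 0.0899, against 1.07 to 3.79 for the other 5. With a loess correction for GC content and length, 11 Rab genes passed (33.3%), 2 higher (Rab1b and Rab5c) and 9 lower, among which were all 6 named above, and 33.2% of all genes tested passed in the same fit. What set this library apart was not tested.

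**Figure D5:**
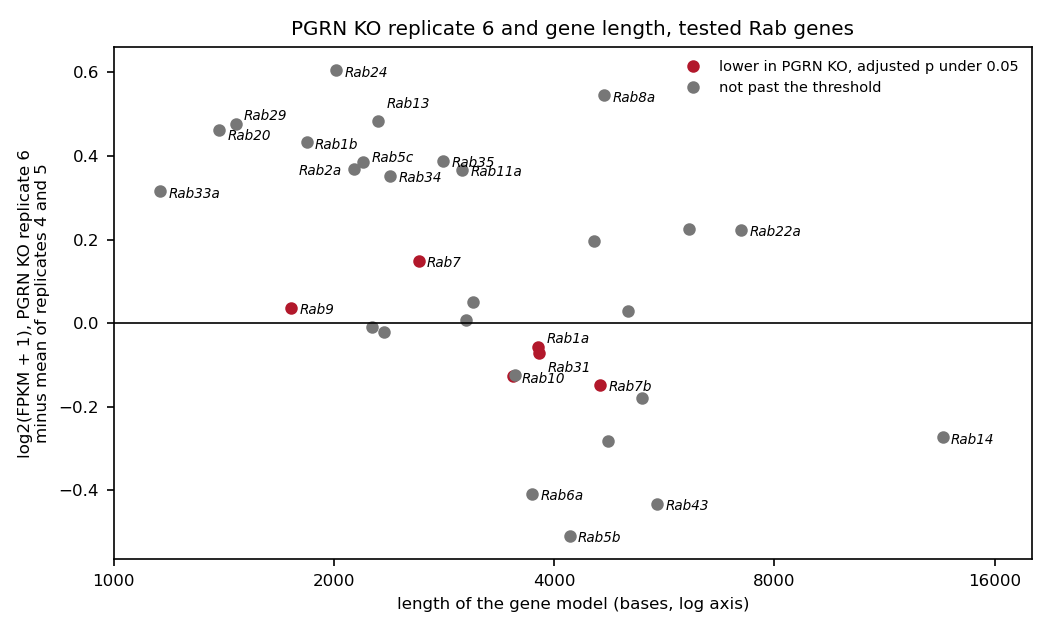
Difference of PGRN KO replicate 6 from the mean of PGRN KO replicates 4 and 5 on the log2(FPKM + 1) scale, against the length of the gene model (log axis), for the 33 tested Rab genes. The 16 shorter genes have a median of 0.37 and the 16 longer ones of -0.13. The 6 genes that passed the threshold, in red, lie between -0.15 and 0.15, a range partly set by a test that favours a small spread.

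The genes that load, unload, carry and read Rab proteins were examined from lists of 141 genes, of which 101 were tested. Of these, 29 passed (28.7%), 10 higher and 19 lower, beside 24.2% of all genes tested, with a median log2 fold change of -0.11. With 1 library left out the count ranged from 10, when it was WT replicate 1, to 43, when it was PGRN KO replicate 6. In those 2 fits 8.03% and 41.3% of all tested genes passed. Among exchange factors, 32 of 42 were tested, 5 passed as higher and 5 as lower. Together these were 31.25%, beside 24.2% of all genes tested, 10.4% higher and 13.8% lower. Dennd3, an exchange factor for Rab12, was at 1.13, 1.20 and 1.15 FPKM in WT and 3.85, 3.10 and 3.19 FPKM in PGRN KO, with a log2 fold change of 1.02 ± 0.10 (SE, limma adjusted p = 0.00162). Rin2, an exchange factor for Rab5, was at 0.907 to 1.02 FPKM in WT and 2.57 to 3.03 in PGRN KO, a log2 fold change of 0.96. Dennd4a, which acts on Rab10, was lower, at 8.91 to 10.2 FPKM in WT and 5.50, 5.67 and 2.89 in PGRN KO, a log2 fold change of -0.96. The lowest value is that of replicate 6, in which longer genes tended to read low, and its gene model has 16643 bases. The size of this change is uncertain to that extent. Ccz1, a subunit of the exchange factor for Rab7, was higher at 6.22 to 6.84 and 8.31 to 9.13 FPKM and was picked after its values were seen. Its partners Mon1a and Mon1b did not pass, with log2 fold changes of 0.26 and -0.27.

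Of 37 TBC domain proteins, 27 were tested, 3 passed as higher and 7 as lower. Together these were 37.0%, beside 24.2% of all genes tested, 10.4% higher and 13.8% lower. Tbc1d15, a GTPase-activating protein for Rab7, was at 32.5, 33.4 and 31.5 FPKM in WT and at 17.3, 17.4 and 15.5 FPKM in PGRN KO. The groups were wide apart, with a log2 fold change of -0.92 ± 0.09 (SE, limma adjusted p = 0.00142). Tbc1d13, which acts on Rab35, rose from 4.89 to 5.07 FPKM in WT to 10.2 to 12.6 in PGRN KO, a log2 fold change of 1.06. Tbc1d4, which acts on Rab10 and its relatives, was at 2.49 to 2.93 FPKM in WT and 0.874 to 1.20 in PGRN KO, a log2 fold change of -0.92. None of the 6 tested genes for prenylation and GDP dissociation inhibition passed in limma or was lower at an unadjusted p under 0.05, at which 2 were higher.

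Among effectors, 34 of 52 were tested, 2 passed as higher and 7 as lower. Together these were 26.5%, near the 24.2% of all genes tested. Rab11fip1, an effector of Rab11, was at 56.2, 59.8 and 53.4 FPKM in WT and at 33.6, 31.5 and 20.8 FPKM in PGRN KO. Its log2 fold change was -0.98 (limma adjusted p = 0.0106), while the interval of Rab11a itself included 0. The lowest value of Rab11fip1 is that of replicate 6, which stood apart from the other PGRN KO libraries. The size of its change is uncertain to that extent. Rilpl2, which binds Rab8 and Rab10, was at 29.5 to 30.9 FPKM in WT and 14.5 to 21.2 in PGRN KO, a log2 fold change of -0.82. Vps18, a core subunit of the HOPS complex that Rab7 recruits to tether late endosomes to lysosomes, was at 24.2, 23.8 and 24.9 FPKM in WT and at 15.3, 15.4 and 15.3 FPKM in PGRN KO. The PGRN KO values were almost identical, and its log2 fold change was -0.63 (limma adjusted p = 0.00305). Vps11 and Vps33a of the same complex had log2 fold changes of -0.49 and -0.50. Plekhm1, a Rab7 effector that joins lysosomes to their partners, had one of -0.47. All 3 were past the threshold as lower and were picked after their values were seen. Vps16, Vps39 and Vps41 of that complex were also on the list and, like the 2 effectors that passed as higher, are not described here. Of 3 kinases and phosphatases that act on Rab proteins, 2 were tested and neither passed.

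Promoter sequences were examined as a description of the Rab genes, without a test. RefSeq promoter windows on GRCm38.p6, from 250 bases before to 50 bases after an annotated start, were matched for 48 of the 59 genes, 60 windows in all, of which 36 belonged to tested genes. The windows of tested Rab genes were rich in CpG, with a median of 23.5 CpG and 63.0% GC, beside 21.0 and 61.3% for all tested genes and 7 and 52.7% for all windows in the table. Motifs were searched on both strands. The E-box CACGTG was in 11.1% of windows of tested Rab genes, in 10.7% of those of all tested genes and in 7.15% of all windows. The longer palindromic CLEAR element, which contains CACGTG and is read by the lysosomal regulator Tfeb, was in the windows of 3 tested Rab genes (8.33% of 36), Rab5a, Rab21 and Rab24, beside 0.887% for all tested genes and 0.326% of all windows. TGANTCA was found for Rab15, Rab34 and Rab39b, and the core of the interferon-stimulated response element for Rab19, and these were in 7.81% and 3.44% of all windows. The kappa B consensus was in none of the Rab windows and in 0.155% of all windows. A match is a string of letters and not a bound site, and no match says only that the letters are not in the window. None of the 5 genes with lower levels and a window (Rab1a, Rab7, Rab9, Rab10 and Rab31) held a motif searched for. The windows of the 3 genes with the longer motif are shown first, with each motif match in capitals, and those of Rab7, the most abundant, and Rab31, with the lowest adjusted p, follow without capitals. Rab5a lies at chr17:53478984-53479283 on the plus strand, Rab21 at chr10:115315542-115315841, Rab24 at chr13:55321931-55322230, Rab7 at chr6:88045221-88045520 and Rab31 at chr17:65772703-65773002, all 4 on the minus strand.
Rab5a: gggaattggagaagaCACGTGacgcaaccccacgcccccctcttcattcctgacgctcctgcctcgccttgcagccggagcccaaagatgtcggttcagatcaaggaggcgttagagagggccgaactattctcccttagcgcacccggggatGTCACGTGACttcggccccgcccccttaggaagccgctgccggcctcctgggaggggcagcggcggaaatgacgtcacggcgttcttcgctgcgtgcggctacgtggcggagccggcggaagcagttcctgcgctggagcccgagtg
Rab21: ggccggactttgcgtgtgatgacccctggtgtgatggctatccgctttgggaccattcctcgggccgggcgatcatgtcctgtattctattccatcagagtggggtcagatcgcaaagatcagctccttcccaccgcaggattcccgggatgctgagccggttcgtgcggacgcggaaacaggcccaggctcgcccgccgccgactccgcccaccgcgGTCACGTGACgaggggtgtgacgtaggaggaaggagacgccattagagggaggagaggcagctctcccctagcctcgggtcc
Rab24: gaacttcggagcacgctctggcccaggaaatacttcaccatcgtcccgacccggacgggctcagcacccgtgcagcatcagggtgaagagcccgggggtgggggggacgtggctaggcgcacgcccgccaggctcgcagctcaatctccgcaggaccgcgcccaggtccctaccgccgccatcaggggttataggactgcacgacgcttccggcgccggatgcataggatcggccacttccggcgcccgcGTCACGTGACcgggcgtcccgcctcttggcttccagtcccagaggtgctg
Rab7: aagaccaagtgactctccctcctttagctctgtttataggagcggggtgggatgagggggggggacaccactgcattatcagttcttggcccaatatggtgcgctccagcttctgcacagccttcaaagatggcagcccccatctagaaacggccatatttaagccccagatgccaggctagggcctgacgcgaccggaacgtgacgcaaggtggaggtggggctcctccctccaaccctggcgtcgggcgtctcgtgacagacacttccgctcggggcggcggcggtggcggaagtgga
Rab31: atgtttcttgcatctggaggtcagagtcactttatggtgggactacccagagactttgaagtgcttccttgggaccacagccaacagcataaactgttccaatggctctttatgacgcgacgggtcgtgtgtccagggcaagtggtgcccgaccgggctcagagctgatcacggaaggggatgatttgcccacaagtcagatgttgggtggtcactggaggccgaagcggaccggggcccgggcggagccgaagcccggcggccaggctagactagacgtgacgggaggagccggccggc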

How the data were processed

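The authors removed low-quality and adaptor-containing reads, aligned the rest to the mouse genome, counted fragments per gene and deposited FPKM for 6 libraries made with the NEBNext Ultra kit. Per the submitters' processing notes the tools were HISAT2 2.0.5, featureCounts 1.5.0-p3 and DESeq2 1.20.0 on mm10/GRCm38, whereas the text of the study names HISAT and HTSeq, and which counter made the table is not settled. Whether counting used strand is not stated in the labels or the paper. Of the 54532 gene identifiers, 99.93% were in GENCODE M21 (GRCm38), 98.26% of these with the same coordinates, as were 57 of the 59 Rab genes. The deposited FPKM multiplied by gene length gave whole fragments, within 0.001, for 100.0% of values above 0, and had been scaled between libraries by median ratios. The libraries held 15996786 to 17551619 fragments, which carry no molecular identifiers.

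The 8882 genes averaging 1 FPKM or more were compared as log2(FPKM + 1) with limma 3.58.1 in R 4.3.3 (two-sided, empirical Bayes, variance trend, without covariates), with Benjamini-Hochberg adjustment over all of them and a threshold of 0.05. Shares and sums were compared by exact two-sided permutation (scipy 1.17.1), which cannot go below p = 0.1 with 3 against 3 libraries. On simulated data the test recovered most of the planted changes in the right direction, but the mean share of false calls was 9.48%, above the nominal threshold of 0.05. The simulation used the same dispersion of 0.02 for all genes and held no displaced library, unlike these data. Alternatives were pseudocounts of 0.1 and 0.01, no filter, a mean of at least 5 FPKM, a TPM scale, the sum of fragments as library size, quantile normalization, no variance trend, sample weights, limma voom, protein-coding genes only, a loess correction for GC content and length (span 0.5), and leaving out each library. The same correction without PGRN KO replicate 6 was chosen after seeing the data.

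The Rab genes, their grouping by role, the lists of regulators and markers and the motifs were chosen with earlier results of these data known. Named were every Rab gene past the threshold or with an adjusted p between 0.05 and 0.1, the most abundant of each role group, and in each regulator list the 3 largest changes past the threshold without overlap. Others are named where their values are described.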

Additional observations from a re-analysis of the deposited data

How the results depend on the processing

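Over all genes, 2151 passed the threshold, 1366 without a filter on low values, 4225 with sample weights and 3722 with the loess correction (GC content and length) fitted without PGRN KO replicate 6, which was chosen after seeing the data, and leaving out 1 library gave 713 to 3668. In place of 6 Rab genes, 3 passed on the TPM scale (2 higher, 1 lower) and 4 with the sum of fragments (2 higher, 2 lower), among which were only 1 and 2 of the 6, and 17.2% and 21.1% of all tested genes passed. There were 8 with quantile normalization (2 higher, 6 lower) and 4 without a filter (1 higher, 3 lower), beside 24.6% and 5.96% of all. There were 14 with sample weights (3 higher, 11 lower), 11 with the correction (2 higher, 9 lower) and 15 with the correction without PGRN KO replicate 6 (4 higher, 11 lower), beside 47.6%, 33.2% and 41.9% of all. Leaving out 1 library gave 0 to 15, with 0 to 2 higher and 0 to 13 lower. The 29 regulators became 15 on the TPM scale, 52 with sample weights and 45 with the correction without PGRN KO replicate 6, and 10 to 43 when 1 library was left out. Grn passed under all 19 alternatives, at log2 fold changes of -14.27 to -8.08.

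The sign of 14 Rab genes near 0, none of them past the threshold in the comparison reported, turned under some alternatives, and the cause was not tested. On the TPM scale the log2 fold changes became 0.010 (Rab11a), 0.043 (Rab18), 0.035 (Rab8a), 0.041 (Rab22a), 0.021 (Rab11b), 0.017 (Rab24) and 0.031 (Rab33b). With the sum of fragments they became 0.055 (Rab11a), 0.023 (Rab32), 0.086 (Rab18), 0.078 (Rab8a), 0.083 (Rab22a), 0.063 (Rab11b), 0.056 (Rab24), 0.033 (Rab40c) and 0.063 (Rab33b). With quantile normalization they became 0.0033 (Rab11a), 0.049 (Rab18), 0.017 (Rab8a), 0.024 (Rab22a) and 0.0079 (Rab11b). With sample weights they became -0.0052 (Rab2a), 0.019 (Rab33b) and -0.029 (Rab34). With the correction they became 0.020 (Rab8a), 0.11 (Rab22a), 0.055 (Rab11b), 0.0031 (Rab33b) and -0.014 (Rab34), and with the correction without PGRN KO replicate 6 0.027 (Rab6a), -0.036 (Rab2a), 0.0069 (Rab18), 0.056 (Rab33b) and -0.0057 (Rab34). When 1 library was left out, the log2 fold changes ranged over -0.17 to 0.026 (Rab11a), -0.23 to 0.00063 (Rab6a), -0.048 to 0.15 (Rab2a), -0.028 to 0.013 (Rab18), -0.20 to 0.093 (Rab8a), -0.029 to 0.24 (Rab5b), -0.083 to 0.029 (Rab22a), -0.10 to 0.032 (Rab11b), -0.23 to 0.098 (Rab24), -0.16 to 0.045 (Rab40c), -0.064 to 0.029 (Rab33b), -0.035 to 0.14 (Rab34) and -0.23 to 0.036 (Rab13).

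No paired analysis was possible because no replicate number occurs in both genotypes. The 3 libraries a genotype, the displacement of PGRN KO replicate 6 and the few fragments behind low Rab genes limit these results. With 1 library left out, the test had fewer samples.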
